A study of Mus musculus with 12 samples.

Results

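The mitochondrial ribosomal protein genes of mouse liver are described here across 4 groups that combine 2 oxygen levels with dexamethasone (DEX) or its vehicle. The members are the genes whose mouse symbol is Mrps or Mrpl followed by a number and at most 1 letter, with at least 1 CPM (the count scaled by library size) in at least 3 of the 12 libraries. This pattern matched 78 symbols among the 54838 identifiers of the count table, and 77 passed the CPM rule, 29 with small-subunit and 48 with large-subunit symbols. All 77 had at least 1 CPM in all 12 libraries and were among the 13861 genes tested. The lowest of them, Mrps36, ranged from 1.60 to 4.06 CPM of the library total, and the next, Mrps6, from 3.27 to 4.98. Mrpl53, the only matching symbol left out, had 2 counts in all libraries together. Of its 790 annotated exonic bases, 695 lie under another gene model, Gm42688, on the same strand. Whether reads from it went unassigned for this reason was not tested.

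Livers of C57BL/6J mice were profiled by RNA sequencing, with 3 biological replicates in each group. Normoxic mice stayed in room air at 21% oxygen, and hypoxic mice spent 24 h at 7% oxygen. Mice then received an intraperitoneal injection of phosphate-buffered saline (PBS) or of DEX, a synthetic glucocorticoid, at 10 mg/kg. Hypoxic mice went back to 7% oxygen after the injection, and all livers were taken 2 h after it. The groups are therefore normoxia with PBS, normoxia with DEX, hypoxia with PBS and hypoxia with DEX, with injection and strain common to all. The protocol text names both oxygen arms as hypoxic, whereas the sample titles separate normoxia from hypoxia, and the titles were followed.

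The mitochondrial ribosome translates the few messenger RNAs of the mitochondrial genome, which encode core subunits of the respiratory chain and of ATP synthase. Its ribosomal RNAs are transcribed from mitochondrial DNA, while its proteins are all encoded in the nucleus, made in the cytosol and imported. It carries many proteins that bacterial ribosomes lack, and liver cells, which are rich in mitochondria, express it broadly. Glucocorticoids act through the glucocorticoid receptor, and low oxygen stabilises the hypoxia-inducible factors (HIF), both of which are transcription regulators.

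Library totals ranged from 12464687 to 24715995 counts, and the 77 genes together took 0.143% to 0.174% of them. All 5 hepatocyte markers examined were measured, and their summed level lay between 107876 and 140237 CPM in the 12 libraries. The libraries Hypoxia_DEX-1 and Hypoxia_DEX-3 resembled each other more than any other replicates did. Their chi-square statistic was 1.79 per gene, against 10.5 to 38.4 in the other 11 replicate pairs, and 1.17 per member gene, against 1.55 to 5.79. Over all genes the statistic stayed above sampling noise, while for the members it came near it. It cannot show whether these libraries came from separate animals, which was not tested. Both were kept as labelled, and results that changed when they were summed are named. Hypoxia_PBS-1 differed most from its replicates, at 5.79 and 3.37 per member gene. The tissue was bulk liver, in which fewer cells of a type and less RNA per cell cannot be told apart. Kupffer cell markers, which mark liver macrophages, were lower in hypoxia for 11 of 11 genes in both drug arms, and their summed level was 210 to 258 CPM in the hypoxia libraries with PBS against 518 to 683 CPM in normoxia with PBS. Clec4f, a defining marker, averaged 25.9 CPM in the former and 113 CPM in the latter. Of 6 markers of stellate cells, which store retinoids and make collagen, 3 were lower with PBS and 5 with DEX, and their summed level was 234 to 273 CPM in hypoxia against 263 to 357 CPM in normoxia with PBS. Of 6 endothelial markers, 3 were lower and 1 higher with PBS and 2 lower with DEX, with sums of 262 to 272 CPM in hypoxia against 299 to 334 CPM in normoxia with PBS. The part of these differences in the results below was not tested.

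Promoter windows from RefSeq (build GRCm38.p6) cover 250 bases before and 50 bases after each annotated start. They were found for 68 of the 77 genes, and 6 of them, chosen after the values were seen, are shown. Among genes with a window that were called in both drug arms, Mrpl16 had the largest rise in hypoxia with PBS and Mrpl17 with DEX, Mrps18a had the largest fall with PBS and Mrpl14 with DEX, and Mrpl39 had the next largest fall with DEX. Mrps31 was higher after DEX. Capitals mark matches, on either strand, to CGCATGCG (nuclear respiratory factor 1, NRF1), CCGGAAG (ETS factors, which include GABP), AAGATGGC (YY1) and CACGTG (E-box). They also mark ACGTG (the HIF core with A first, which also lies inside the E-box), ACANNNTGT (the glucocorticoid receptor half-sites) and CCAAT (the CCAAT box). The HIF core with G first, GCGTG, was not searched and is not marked. The windows are chr19:11770165-11770464 on the plus strand for Mrpl16, chr7:105811038-105811337 on the minus strand for Mrpl17, chr17:45686099-45686398 on the plus strand for Mrpl14, chr17:46110754-46111053 on the plus strand for Mrps18a, chr16:84735195-84735494 on the minus strand for Mrpl39 and chr8:22411090-22411389 on the plus strand for Mrps31, each written 5′ to 3′ on the gene's strand.
Mrpl16: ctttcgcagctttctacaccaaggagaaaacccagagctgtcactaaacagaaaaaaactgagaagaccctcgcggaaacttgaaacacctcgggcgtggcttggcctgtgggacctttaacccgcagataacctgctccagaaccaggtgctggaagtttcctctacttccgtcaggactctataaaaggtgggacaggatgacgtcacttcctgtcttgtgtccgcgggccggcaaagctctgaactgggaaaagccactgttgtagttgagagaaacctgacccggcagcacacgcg
Mrpl17: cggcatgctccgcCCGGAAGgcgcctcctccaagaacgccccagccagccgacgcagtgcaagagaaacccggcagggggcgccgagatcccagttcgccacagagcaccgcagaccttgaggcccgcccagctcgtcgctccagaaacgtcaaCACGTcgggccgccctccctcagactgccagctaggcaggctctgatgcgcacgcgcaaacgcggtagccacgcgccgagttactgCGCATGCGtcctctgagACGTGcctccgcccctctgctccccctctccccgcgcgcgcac
Mrpl14: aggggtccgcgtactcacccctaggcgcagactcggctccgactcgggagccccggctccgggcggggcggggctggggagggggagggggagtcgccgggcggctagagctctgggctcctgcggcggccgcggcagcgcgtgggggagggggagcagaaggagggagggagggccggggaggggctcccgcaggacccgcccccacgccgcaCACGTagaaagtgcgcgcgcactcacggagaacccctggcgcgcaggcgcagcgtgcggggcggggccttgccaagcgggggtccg
Mrps18a: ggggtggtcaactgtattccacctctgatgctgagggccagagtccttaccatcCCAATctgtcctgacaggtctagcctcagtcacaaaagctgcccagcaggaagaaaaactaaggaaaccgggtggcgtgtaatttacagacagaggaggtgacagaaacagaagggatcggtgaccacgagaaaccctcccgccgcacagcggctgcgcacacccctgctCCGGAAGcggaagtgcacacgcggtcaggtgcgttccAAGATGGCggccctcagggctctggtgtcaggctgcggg
Mrpl39: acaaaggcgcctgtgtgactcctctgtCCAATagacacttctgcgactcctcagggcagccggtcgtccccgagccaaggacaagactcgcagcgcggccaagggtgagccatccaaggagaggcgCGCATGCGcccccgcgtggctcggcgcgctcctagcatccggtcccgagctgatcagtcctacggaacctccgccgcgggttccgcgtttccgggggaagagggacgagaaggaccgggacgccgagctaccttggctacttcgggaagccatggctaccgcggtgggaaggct
Mrps31: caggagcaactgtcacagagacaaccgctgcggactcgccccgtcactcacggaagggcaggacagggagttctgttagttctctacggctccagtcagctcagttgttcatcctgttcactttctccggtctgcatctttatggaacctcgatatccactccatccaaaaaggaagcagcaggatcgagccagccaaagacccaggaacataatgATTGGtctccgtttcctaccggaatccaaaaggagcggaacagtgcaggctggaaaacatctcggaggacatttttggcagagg

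Positions are counted from the annotated start, with negative values before it. The Mrpl16 window held 0 matches to the 7 motifs. The Mrpl17 window held an NRF1 match at -10, an ETS match at -237 and HIF core letters at -96 and 8. The Mrpl14 window held HIF core letters at -36. The Mrps18a window held an ETS match at -26, a YY1 match at 12 and CCAAT at -196. The Mrpl39 window held an NRF1 match at -124 and CCAAT at -223. The Mrps31 window held 1 inverted CCAAT match, at -34, and none of the other letters, glucocorticoid receptor half-sites included, which says only that these letters are not in this window.

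Among the 74 windows of the 68 genes, 33.8% held the ETS letters, 16.2% the YY1 letters and 9.46% the NRF1 letters. The windows of all tested genes held them in 16.5%, 4.20% and 3.59%, and all 32851 windows in 8.86%, 2.75% and 1.87%. ACGTG, the searched form of the HIF core, was found in 25.7% of the members' windows against 24.9% for tested genes and 19.6% for all windows. The E-box was found in 9.46% against 9.70% and 7.15%, and CCAAT in 39.2% against 37.5% and 37.4%. These shares count windows rather than genes, and 3 of the 68 genes had more than 1 window. The windows of Mrpl2 nearly coincide, and each held the E-box, ACGTG and CCAAT. The glucocorticoid receptor letters stood in 4.05% of the members' windows, those of Mrpl23, Mrpl34 and Mrpl45, against 4.62% for tested genes and 6.85% for all windows. Of the genes higher in hypoxia in both drug arms, 7 had a window, and HIF core letters stood in 3 of them, ETS in 3, CCAAT in 1 and YY1 in 0. Of the genes lower in both, 12 had a window, and HIF core letters stood in 5, ETS in 1, CCAAT in 7 and YY1 in 3. A match is a description of letters and not evidence of binding.

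Levels differed widely between members within each liver. Per kilobase of transcript (the median length of a gene's protein-coding transcripts), mean CPM over all 12 libraries ran from 1.08 for Mrps25 to 58.7 for Mrpl17. The median was 17.4. The order depends on the length used: the exons of Mrpl17 together cover 7605 bases, against 743.5 bases for its transcript length. The highest after Mrpl17 were Mrpl20 at 52.0, Mrpl30 at 51.0, Mrpl52 at 50.8 and Mrpl12 at 47.0 CPM per kilobase. Mrpl12 forms the flexible stalk that recruits translation factors. The lowest after Mrps25 were Mrpl19 at 1.97, Mrpl47 at 3.00, Mrps26 at 3.15 and Mrps36 at 4.02 CPM per kilobase. Overlap with genes on the other strand covered 4590 of 6576 exonic bases in Mrps25, 1962 of 5450 in Mrpl19 and 1068 of 4419 in Mrpl47. In Mrps26 it covered 8 of 4358, and in Mrps36 0. Whether reads from these bases went unassigned and lowered the values was not tested. The protein of Mrps36 is now regarded as a subunit of the 2-oxoglutarate dehydrogenase complex rather than of the ribosome. Within groups the coefficient of variation of a member ranged from 3.74% to 17.9%, with a median of 6.77%. Group means of a member differed by a median of 1.27-fold between its highest and lowest group and by 1.94-fold at most.

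The summed level of all 77 genes kept to a narrow range. It was 1575 ± 41.8 CPM in normoxia with PBS, 1621 ± 23.3 in normoxia with DEX, 1534 ± 70.9 in hypoxia with PBS and 1563 ± 22.1 in hypoxia with DEX (SD, n = 3). The single libraries lay between 1492 and 1644 CPM. Large-subunit symbols gave 2.09 ± 0.01 times the counts of small-subunit symbols in normoxia with PBS, 1.97 ± 0.02 in normoxia with DEX, 2.16 ± 0.08 in hypoxia with PBS and 2.09 ± 0.02 in hypoxia with DEX. Some related groups kept to similarly narrow ranges. The 25 tested assembly factors summed to 262 ± 5.31, 268 ± 9.29, 266 ± 17.0 and 269 ± 4.87 CPM in the same order of groups, and the 5 mitoribosomal proteins with other symbols to 132 ± 8.69, 141 ± 4.999, 131 ± 5.57 and 139 ± 3.85 CPM. Other mitochondrial transcripts spread over wider ranges. In the same order, the 10 measured messenger RNAs of the mitochondrial genome summed to 44352 ± 2914, 54139 ± 3798, 61148 ± 1870 and 66158 ± 1562 CPM. The 2 mitochondrial ribosomal RNAs summed to 1018 ± 125, 1279 ± 40.4, 523 ± 52.6 and 512 ± 49.0 CPM. A set of 16 other nuclear genes of mitochondrial proteins, such as citrate synthase and import receptors, summed to 2254 ± 66.7, 2463 ± 64.2, 2736 ± 125 and 3216 ± 48.5 CPM.

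**Figure D1:**
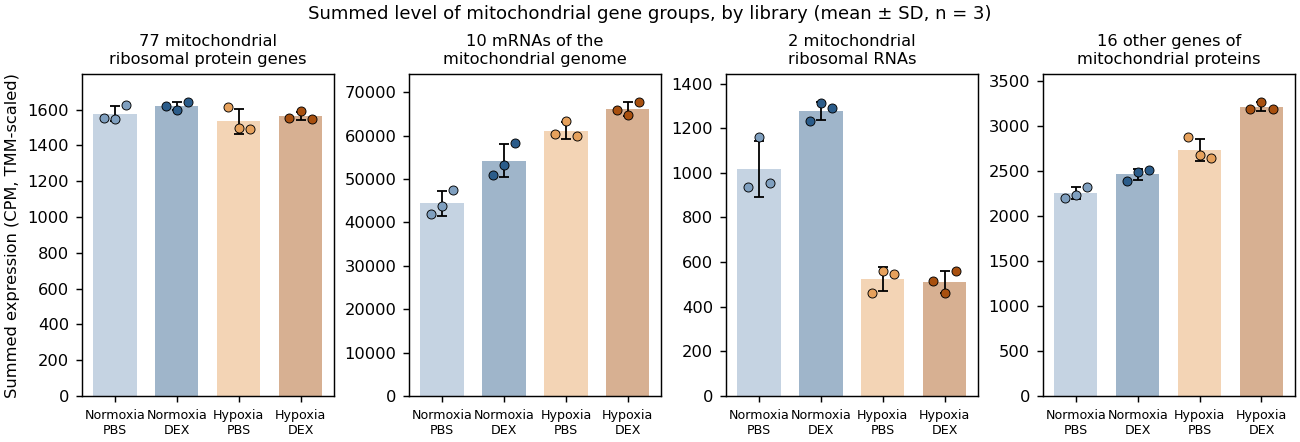
Summed CPM of 4 mitochondrial gene groups in the 12 libraries (points), with bars at the group mean and SD over 3 libraries. The ribosomal protein sum stays between 1492 and 1644 CPM in all libraries, while the mitochondrial ribosomal RNAs are lower in all hypoxia libraries, at 523 against 1018 CPM on average with PBS.

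The first comparison asks how 24 h of low oxygen changed these genes, separately with PBS and with DEX. With PBS, 12 of the 77 genes were higher and 20 lower in hypoxia at an adjusted p under 0.05 (edgeR quasi-likelihood test, Benjamini-Hochberg adjustment over all tested genes), and 45 did not pass. Over all tested genes 35.7% passed, 18.9% higher and 16.8% lower. The median log2 fold change was -0.04 for the members and 0.01 for all tested genes, with members ranging from -0.85 to 0.70. With DEX, 14 were higher and 23 lower, where 42.9% of all tested genes passed, 20.7% higher and 22.2% lower. The members' median there was -0.13 against -0.02 for all tested genes. DESeq2 called 10 members higher and 17 lower with PBS, and 14 higher and 17 lower with DEX. Of 13859 genes it called 2531 higher and 2130 lower with PBS, and 2875 and 2764 with DEX. The share of members that passed by edgeR was near that of genes at large in both arms. More members were lower than higher, though by less with DEX under DESeq2. Their changes were smaller: 5 members with PBS and 4 with DEX passed and exceeded 1.5-fold, where 18.7% and 23.6% of all tested genes did. The 3 libraries of each group did not overlap for 16 higher and 25 lower members with PBS, where 45.7% of all tested genes did not, and for 18 higher and 31 lower members with DEX, where 56.6% did not. Scaling by library totals alone moved the median of all genes to -0.12 with PBS and to -0.08 with DEX, and then 7 members were higher and 29 lower with PBS, and 9 higher and 30 lower with DEX. Without Hypoxia_PBS-3, 11 rather than 20 were lower with PBS.

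**Figure D2:**
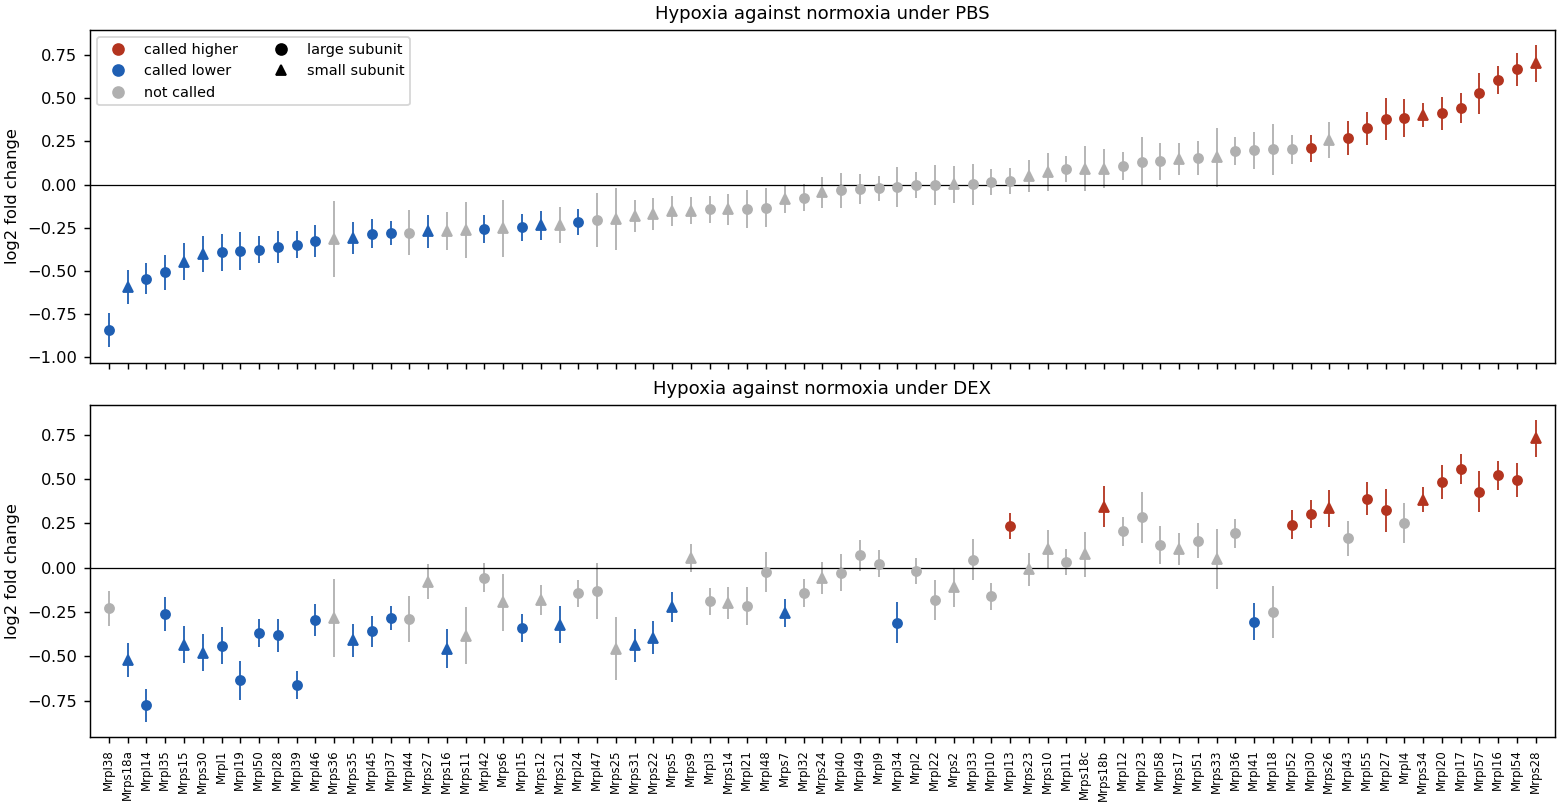
Log2 fold change, hypoxia against normoxia, of all 77 genes with PBS (top) and DEX (bottom), in the order of the PBS values, with bars of 1 standard error and colours for genes called higher or lower at an adjusted p under 0.05. Called genes run from -0.85 (Mrpl38) to 0.70 (Mrps28) with PBS, and 69 of the 77 keep their side of 0 with DEX.

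The PBS and DEX arms share no libraries, so their responses can be set side by side. Across the 77 genes the fold changes had Pearson r = 0.87 and Spearman rho = 0.87, against 0.80 and 0.76 across all 13861 tested genes. These are correlations across genes, which are not independent replicates. The members and all tested genes were not matched for expression level. The sign agreed for 69 of 77 members (89.6%) and for 80.4% of all tested genes. In both arms 10 members were higher, where 13.9% of all tested genes were, and 15 were lower, where 12.7% were. None was called in opposite directions, 7 passed with PBS alone, 12 with DEX alone and 33 in neither. Whether a response differed between the arms was tested by the interaction described further on.

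**Figure D3:**
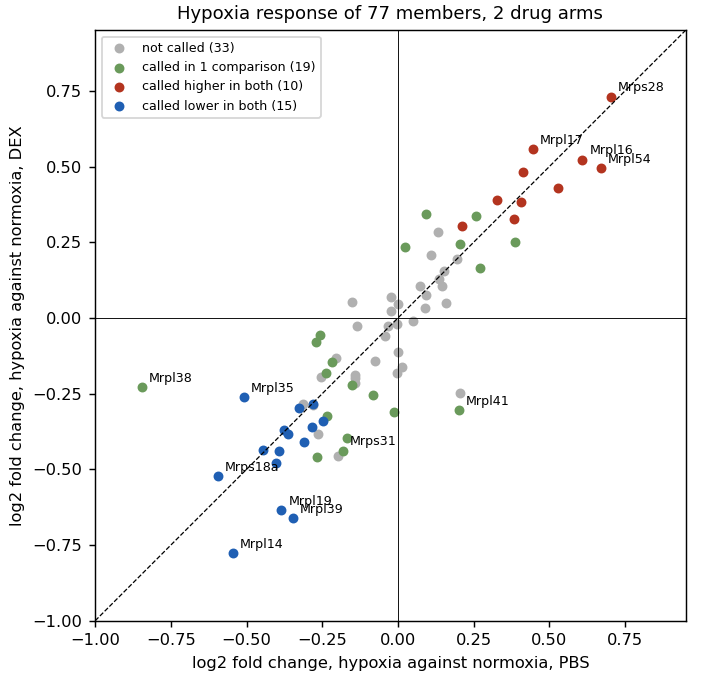
Each point is 1 of the 77 genes, with its log2 fold change in hypoxia with PBS (horizontal) and with DEX (vertical) and a dashed line of equality. The 10 genes higher in both and the 15 lower in both keep their side of 0 on both axes. Mrpl38 stands furthest from the line, at -0.85 with PBS and -0.23 with DEX. Others also stand off it, such as Mrpl41 (0.20 and -0.31) and Mrpl39 (-0.35 and -0.66).

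The genes that rose with low oxygen in both arms were Mrps28, Mrpl54, Mrpl16, Mrpl57, Mrpl17, Mrpl20, Mrps34, Mrpl27, Mrpl55 and Mrpl30. Mrpl27 and Mrpl55 fall outside the naming rule and are given because they complete this set of 10. Mrps28 (chr3:8802146-8923918, minus strand), the protein that takes the place of bacterial S1 in the small subunit, stood at 11.1, 10.8 and 12.3 CPM in normoxia with PBS and at 20.9, 17.1 and 17.5 CPM in hypoxia with PBS. With DEX it stood at 12.5, 10.2 and 11.1 CPM in normoxia and at 19.2, 18.7 and 18.2 CPM in hypoxia. All 6 hypoxia libraries lay above all 6 normoxia libraries. Its log2 fold change was 0.70 ± 0.11 with PBS (standard error, edgeR adjusted p = 0.000249) and 0.73 ± 0.10 with DEX (adjusted p = 0.000121).

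Mrpl54 (chr10:81264713-81266934, minus strand), a protein near the stalk base, read 11.8, 11.8 and 12.4 CPM in normoxia and 20.3, 18.8 and 18.1 CPM in hypoxia with PBS. With DEX it read 13.2, 12.1 and 12.2 CPM in normoxia and 18.8, 15.3 and 18.6 CPM in hypoxia. The groups did not overlap in either arm, and the log2 fold changes were 0.67 ± 0.10 (edgeR adjusted p = 0.000181) and 0.49 ± 0.10 (adjusted p = 0.00103). Mrpl16 (chr19:11770391-11774960, plus strand), a conserved protein next to the tRNA sites of the large subunit, read 19.4, 19.2 and 22.4 CPM in normoxia and 33.0, 30.4 and 29.3 CPM in hypoxia with PBS. With DEX it read 24.3, 21.8 and 23.7 CPM in normoxia and 31.9, 34.6 and 33.7 CPM in hypoxia. Its log2 fold changes were 0.61 ± 0.08 (edgeR adjusted p = 0.000117) and 0.52 ± 0.08 (adjusted p = 0.000225), again without overlap.

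Mrpl17 (chr7:105803206-105811099, minus strand) was the member with the highest level per kilobase of transcript. It read 35.7, 34.3 and 38.2 CPM in normoxia and 54.5, 44.2 and 48.3 CPM in hypoxia with PBS. With DEX it read 36.4, 33.7 and 38.6 CPM in normoxia and 54.7, 54.4 and 50.8 CPM in hypoxia. The lowest hypoxia library, at 44.2 CPM, was above every normoxia library. The log2 fold changes were 0.44 ± 0.08 (edgeR adjusted p = 0.00135) and 0.56 ± 0.08 (adjusted p = 0.000186). Mrpl20, which binds ribosomal RNA early in assembly in bacteria, rose by log2 0.41 ± 0.09 (edgeR adjusted p = 0.00427) and 0.48 ± 0.09 (adjusted p = 0.0011). Mrpl57 rose by 0.53 ± 0.12 (edgeR adjusted p = 0.00398) and 0.43 ± 0.12 (adjusted p = 0.00972).

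Mrps34, a mitochondria-specific small-subunit protein needed for stability of that subunit, rose by log2 0.41 ± 0.07 (edgeR adjusted p = 0.000679) and 0.38 ± 0.07 (adjusted p = 0.000671). Of its 2064 exonic bases, 763 overlap Nme3 on the same strand and 1309 overlap Mapk8ip3 on the other, and the strand setting of the counting is not given in the sources used here, so its values are uncertain. The call of Mrpl30 with PBS (log2 0.21, edgeR adjusted p = 0.0498) was lost, with adjusted p from 0.0619 to 0.207, on leaving out any 1 of 11 libraries, which were all libraries except Normoxia_PBS-3. It was lost as well with library totals alone (0.411) and with upper-quartile factors (0.109).

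The genes that fell with low oxygen in both arms were Mrps18a, Mrpl14, Mrpl35, Mrps15, Mrps30, Mrpl1, Mrpl19, Mrpl50, Mrpl28, Mrpl39, Mrpl46, Mrps35, Mrpl45, Mrpl37 and Mrpl15. Mrpl1, Mrpl50, Mrpl46, Mrpl37 and Mrpl15 fall outside the naming rule and complete this set of 15, with log2 fold changes of -0.39, -0.38, -0.33, -0.28 and -0.25 with PBS and -0.44, -0.37, -0.30, -0.28 and -0.34 with DEX. Mrpl14 (chr17:45686322-45698495, plus strand), which binds the assembly factor Malsu1 at the subunit interface, read 25.3, 23.4 and 28.9 CPM in normoxia and 17.1, 17.5 and 18.5 CPM in hypoxia with PBS. With DEX it read 22.4, 23.8 and 22.01 CPM in normoxia and 13.3, 14.2 and 12.4 CPM in hypoxia. All hypoxia libraries lay below all normoxia libraries. The log2 fold changes were -0.55 ± 0.09 (edgeR adjusted p = 0.000511) and -0.78 ± 0.09 (adjusted p = 2.76e-05).

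Mrps18a (chr17:46110986-46128910, plus strand) read 17.3, 16.6 and 17.7 CPM in normoxia and 12.2, 10.2 and 11.6 CPM in hypoxia with PBS. With DEX it read 19.4, 17.7 and 17.8 CPM in normoxia and 13.2, 13.6 and 11.4 CPM in hypoxia. The groups were separate in both arms, with log2 fold changes of -0.59 ± 0.10 (edgeR adjusted p = 0.000463) and -0.52 ± 0.10 (adjusted p = 0.00073). Structures of the mammalian mitoribosome place the proteins of Mrps18a and Mrps30 in the large subunit, despite their symbols.

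Mrpl39 (chr16:84717576-84735742, minus strand), whose protein resembles part of a threonyl-tRNA synthetase, read 25.7, 26.8 and 26.0 CPM in normoxia and 21.3, 19.9 and 20.3 CPM in hypoxia with PBS. With DEX it read 28.1, 33.0 and 31.1 CPM in normoxia and 18.7, 20.9 and 18.8 CPM in hypoxia. The normoxia libraries were all above the hypoxia libraries, and the gap was wider with DEX. The log2 fold changes were -0.35 ± 0.08 (edgeR adjusted p = 0.00396) and -0.66 ± 0.08 (adjusted p = 2.66e-05), and the difference between them, -0.31 ± 0.11, did not pass (adjusted p = 0.233).

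Mrps30 fell by log2 -0.40 ± 0.10 with PBS (edgeR adjusted p = 0.00896) and -0.48 ± 0.10 with DEX (adjusted p = 0.00226), and 623 of its exonic bases overlap a gene on the other strand. Such overlap is not given for every gene. Exons of 32 of the 77 members overlap another gene on either strand. Among them are 4 of the 15 lower in both arms, 2 of the 10 higher in both and 7 of the 19 called in 1 arm. Mrps15, a conserved protein that binds the small ribosomal RNA, fell by -0.45 ± 0.11 (edgeR adjusted p = 0.00525) and -0.44 ± 0.10 (adjusted p = 0.00463). Mrpl28 fell by -0.36 ± 0.09 (edgeR adjusted p = 0.00791) and -0.38 ± 0.09 (adjusted p = 0.00442).
The calls of some genes in this set did not hold when single libraries were left out. Mrpl19 changed by -0.39 ± 0.11 (edgeR adjusted p = 0.0144) with PBS, lost without Hypoxia_PBS-3 (0.0541) or Normoxia_PBS-1 (0.0637), and by -0.63 ± 0.11 (adjusted p = 0.000477) with DEX. Mrps35 with PBS (edgeR adjusted p = 0.0195) was lost without Hypoxia_PBS-3 (0.088) or Normoxia_PBS-3 (0.0598), and Mrpl45 with PBS (adjusted p = 0.0195) without Hypoxia_PBS-3 (0.0531). Mrpl35 fell by -0.51 ± 0.10 with PBS (edgeR adjusted p = 0.00159), but its call with DEX (-0.26 ± 0.10, adjusted p = 0.0451) was lost on leaving out any 1 of 9 libraries, namely every library except Hypoxia_PBS-1, Hypoxia_PBS-3 and Normoxia_PBS-3 (adjusted p 0.05002 to 0.147), and by DESeq2 (0.0855).

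Genes called in 1 arm alone had smaller values in the other arm, mostly of the same sign. With PBS these were Mrpl38, Mrps27, Mrpl42, Mrps12 and Mrpl24 (lower) and Mrpl4 and Mrpl43 (higher). With DEX they were Mrps16, Mrps31, Mrps22, Mrps21, Mrpl34, Mrpl41, Mrps7 and Mrps5 (lower) and Mrps18b, Mrps26, Mrpl52 and Mrpl13 (higher). Mrps27 (log2 -0.27 with PBS, edgeR adjusted p = 0.0437) lost its call without any 1 of Hypoxia_PBS-1, Hypoxia_PBS-3, Normoxia_DEX-1 and the 3 libraries of normoxia with PBS (0.0523 to 0.15). Mrps18b (log2 0.34 with DEX, edgeR adjusted p = 0.026) lost it without Hypoxia_DEX-1, Normoxia_DEX-1 or Normoxia_DEX-2 (0.0766 to 0.0945). Mrps26 (log2 0.34 with DEX, edgeR adjusted p = 0.0192) and Mrpl52 (0.24, adjusted p = 0.03) lost it without Hypoxia_DEX-1 (0.0577 and 0.0819) or Normoxia_DEX-2 (0.0698 and 0.08), and with library totals alone. Mrpl24 (log2 -0.22 with PBS, edgeR adjusted p = 0.0402) lost it without Hypoxia_PBS-2, Hypoxia_PBS-3, Normoxia_DEX-1, Normoxia_PBS-1 or Normoxia_PBS-3 (0.0527 to 0.14) and by DESeq2 (0.0582). Mrps5 (log2 -0.22 with DEX, edgeR adjusted p = 0.0498) lost it without any 1 of 11 libraries, all except Hypoxia_PBS-3 (0.0534 to 0.206), and by DESeq2 (0.106). Mrpl42, Mrpl43, Mrps21, Mrpl34, Mrps7 and Mrpl13 fall outside the naming rule and complete the lists of genes called in 1 arm. The 33 genes called in neither arm, among them Mrpl3, which lies close to the peptidyl transferase centre, Mrps2 and Mrpl40, were not called in the DEX comparisons either.

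**Figure D4:**
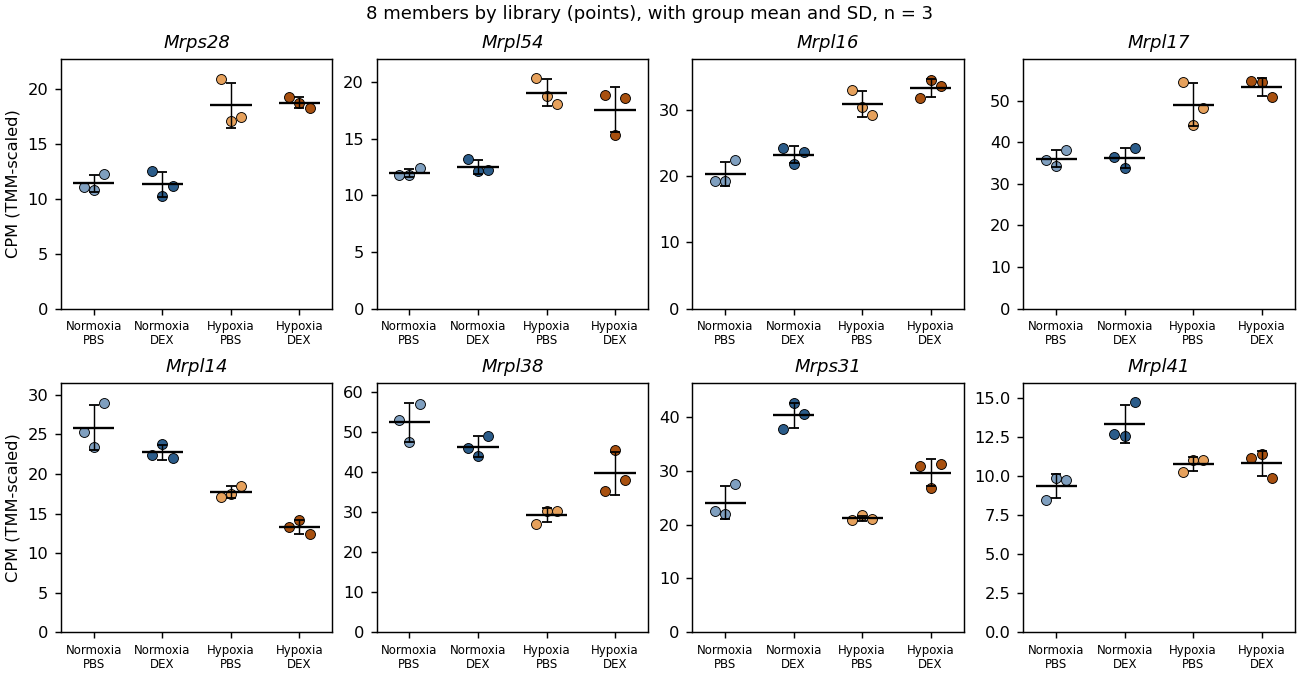
CPM of 8 genes in each library (points), with the group mean and SD over 3 libraries, on axes that start at 0. Mrps28, Mrpl54, Mrpl16 and Mrpl17 are higher in every hypoxia library than in every normoxia library, Mrpl14 is lower, Mrps31 is higher with DEX at each oxygen level, and Mrpl41 is highest in normoxia with DEX.

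Role lists are small, so their counts are read beside the shares of all tested genes that were called, 18.9% higher and 16.8% lower with PBS and 20.7% and 22.2% with DEX, and nothing particular to a list is drawn from them. Grouped by role, 16 members with symbols of conserved small-subunit proteins, most of which contact ribosomal RNA, held 0 higher and 3 lower genes with PBS (edgeR, with 0 higher and 5 lower at an unadjusted p under 0.05, and 0 higher and 2 lower by DESeq2), and 1 higher and 6 lower with DEX. Their median log2 fold changes were -0.15 and -0.20. Mrps12, the decoding-centre protein, had -0.24 ± 0.08 with PBS (edgeR adjusted p = 0.0439), a call lost without any 1 of Hypoxia_PBS-1, Hypoxia_PBS-2, Hypoxia_PBS-3, Normoxia_DEX-1, Normoxia_PBS-1 and Normoxia_PBS-3 (adjusted p 0.0546 to 0.16). Mrps16, which helps the subunit fold in bacteria, read 15.9, 14.2 and 14.7 CPM in normoxia and 10.9, 10.0 and 11.5 CPM in hypoxia with DEX. It fell there by -0.46 ± 0.11 (edgeR adjusted p = 0.00456), and with PBS it had -0.27 ± 0.11 (adjusted p = 0.0734, and 0.0343 without Hypoxia_PBS-1).

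A list of 11 more small-subunit symbols, most of them for mitochondria-specific proteins, left out Mrps24 and Mrps36, which were called in neither arm. It held 2 higher and 3 lower genes with PBS and 3 higher and 4 lower with DEX, the former including Mrps28 and Mrps34 in both arms. Mrps22, a protein whose human gene is known for mutations in oxidative phosphorylation deficiency, fell by -0.40 ± 0.09 with DEX (edgeR adjusted p = 0.00416) and had -0.17 ± 0.09 with PBS (adjusted p = 0.174). Taking the 27 small-subunit symbols without Mrps18a and Mrps30, 2 were higher and 4 lower with PBS and 4 higher and 8 lower with DEX. The other 50 genes, with both added, held 10 higher and 16 lower with PBS and 10 higher and 15 lower with DEX.

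Of the 5 stalk symbols, 4 were tested, and Mrpl54 passed in both arms. Mrpl10 and Mrpl11, which form the base of the stalk, had log2 fold changes of 0.01 ± 0.08 and 0.09 ± 0.08 with PBS and -0.16 ± 0.08 and 0.03 ± 0.07 with DEX. Mrpl12 had 0.11 ± 0.08 with PBS and 0.21 ± 0.08 with DEX (edgeR adjusted p = 0.056). That p fell to 0.0154, 0.0268 and 0.0445 without Hypoxia_PBS-1, Hypoxia_PBS-2 and Normoxia_PBS-3. A list of 6 genes around the exit tunnel, through which the new chain leaves and docks to the inner membrane, held 3 lower genes with PBS and 2 with DEX, and 0 higher by edgeR in either arm (DESeq2 called 0 higher too, as did edgeR before the adjustment). The list does not hold every protein that reaches the tunnel: Mrpl4, which is outside it, was higher with PBS, as given further on. Mrpl45, which contacts the membrane, fell by -0.36 ± 0.09 with DEX (edgeR adjusted p = 0.00453). Of the 8 genes of the central protuberance, 1 was higher and 2 lower with PBS, and 2 higher and 1 lower with DEX. Mrpl58, a peptidyl-tRNA hydrolase built into this region, had 0.14 ± 0.11 and 0.13 ± 0.11, and neither value passed.

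The second comparison asks what DEX did within 2 h at each oxygen level. In normoxia 2 of 77 genes were higher and 0 lower, where 16.8% of all tested genes passed, 9.38% higher and 7.40% lower. Without the adjustment, 8 members were higher and 4 lower at a p under 0.05, where 2068 and 1980 of the 13861 tested genes were. The DESeq2 calls were 2 higher and 0 lower, where 1322 and 1076 of 13859 genes were called. Library totals alone, which moved the median of all genes to -0.15, gave 2 higher and 9 lower. In hypoxia 2 were higher and 2 lower, where 13.2% of all tested genes passed, 6.13% higher and 7.05% lower. That comparison gave 5 higher without Hypoxia_PBS-1, 0 lower without Hypoxia_DEX-3, 1 lower without any 1 of Hypoxia_DEX-1, Hypoxia_DEX-2, Hypoxia_PBS-2, Normoxia_DEX-2 and Normoxia_DEX-3, 1 lower with Hypoxia_DEX-1 and Hypoxia_DEX-3 summed, and 6 lower with library totals alone, when the median of all genes was -0.10. The members' medians were 0.04 and 0.03. The 75 uncalled members in normoxia lay between -0.26 and 0.23, with a median standard error of 0.10, and the 73 uncalled in hypoxia between -0.35 and 0.28. Past 1.5-fold and called were 1 member in normoxia and 0 in hypoxia, against 10.5% and 7.55% of all tested genes. The groups did not overlap for 13 higher and 5 lower members in normoxia, where 35.9% of all tested genes did not, and for 8 higher and 6 lower members in hypoxia, where 29.9% did not.

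Mrps31 (chr8:22411361-22429665, plus strand), a small-subunit protein once described as an islet autoantigen, was higher with DEX at both oxygen levels. It read 22.6, 22.02 and 27.6 CPM with PBS and 37.8, 42.5 and 40.5 CPM with DEX in normoxia. In hypoxia it read 20.8, 21.7 and 21.1 CPM with PBS and 30.9, 26.8 and 31.2 CPM with DEX. The DEX libraries lay above the PBS libraries at each oxygen level. The log2 fold changes were 0.75 ± 0.09 in normoxia (edgeR adjusted p = 7.69e-05) and 0.49 ± 0.09 in hypoxia (adjusted p = 0.00395), and their difference of -0.26 ± 0.13 did not pass (adjusted p = 0.465). With DEX, it was lower in hypoxia by log2 -0.44 ± 0.09 (edgeR adjusted p = 0.00183), while with PBS the value was -0.18 ± 0.09 (adjusted p = 0.152).

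Mrpl41 (chr2:24974117-24975098, minus strand), a mitochondria-specific large-subunit protein, read 8.46, 9.84 and 9.76 CPM with PBS and 12.7, 12.5 and 14.7 CPM with DEX in normoxia. In hypoxia it read 10.2, 11.03 and 11.01 CPM with PBS and 11.1, 11.4 and 9.87 CPM with DEX. The groups were separate in normoxia and overlapped in hypoxia. The log2 fold change was 0.51 ± 0.10 in normoxia (edgeR adjusted p = 0.00407) and 0.00 ± 0.11 in hypoxia, and the difference of -0.51 ± 0.15 did not pass (adjusted p = 0.136). Its fall in hypoxia with DEX, -0.31 ± 0.10 (edgeR adjusted p = 0.0309), was lost without Hypoxia_DEX-1 (0.0691), Hypoxia_DEX-3 (0.163) or Normoxia_DEX-3 (0.155) and by DESeq2 (0.0633), and its value with PBS was 0.20 ± 0.11 (adjusted p = 0.163).

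In hypoxia Mrpl14 was lower with DEX, by log2 -0.41 ± 0.09 (edgeR adjusted p = 0.0108), from 17.1, 17.5 and 18.5 CPM to 13.3, 14.2 and 12.4 CPM, a call lost without Hypoxia_DEX-3 (0.0671). In normoxia its value was -0.18 ± 0.09 (adjusted p = 0.193). Mrpl4, a conserved protein lining the tunnel, had -0.40 ± 0.11 with DEX in hypoxia (edgeR adjusted p = 0.0324), lost without any 1 of 8 libraries, namely all 6 hypoxia libraries, Normoxia_DEX-2 and Normoxia_DEX-3 (adjusted p 0.0507 to 0.181). With PBS it was higher in hypoxia by 0.39 ± 0.11 (edgeR adjusted p = 0.0159), which was lost without Normoxia_PBS-1 (0.0732) and with library totals alone (0.0888).

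The interaction asks whether the DEX response differed between oxygen levels. It called 1 of 77 members higher and 0 lower by edgeR, where 1.32% of all tested genes passed, 0.325% higher and 0.996% lower. Without the adjustment, 1 member was higher and 3 lower at a p under 0.05, where 616 and 1083 of the 13861 tested genes were. The DESeq2 calls were 1 higher and 0 lower, where 113 and 248 of 13859 genes were called. The gene called was Mrpl38 (chr11:116131817-116138868, minus strand), a protein of the central protuberance with a phosphatidylethanolamine-binding fold. It read 53.1, 47.5 and 57.1 CPM in normoxia with PBS, 46.1, 44.1 and 49.2 CPM in normoxia with DEX, 27.2, 30.3 and 30.2 CPM in hypoxia with PBS, and 35.4, 45.6 and 38.1 CPM in hypoxia with DEX. Hypoxia with PBS lay below all other libraries, while hypoxia with DEX reached into the range of normoxia with DEX through Hypoxia_DEX-2.

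With PBS Mrpl38 was lower in hypoxia, at log2 -0.85 ± 0.10 (edgeR adjusted p = 3.85e-05), the largest change of a member in any of the 5 comparisons. With DEX the value was -0.23 ± 0.10 (adjusted p = 0.0752, and 0.0167 without Hypoxia_DEX-2). With DEX it was higher in hypoxia than with PBS by 0.44 ± 0.10 (edgeR adjusted p = 0.0108), and the normoxia value was -0.18 ± 0.10 (adjusted p = 0.25). The difference of these DEX responses was 0.62 ± 0.14 (edgeR adjusted p = 0.0485). It was lost on leaving out any 1 of 10 libraries, which were all libraries except Hypoxia_DEX-1 and Hypoxia_PBS-1, with adjusted p from 0.0517 to 0.101, and when Hypoxia_DEX-1 and Hypoxia_DEX-3 were summed (0.0598).

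The members' hypoxia responses were also set against transcript length, a property the selection did not use. Genes higher in both arms had a median transcript length of 757 bases (range 494 to 2877), genes lower in both 1894 bases (645 to 5000), and the other 52 genes 1043 bases. Among the 26 members with the shortest transcripts (405 to 815 bases) 8 were higher and 4 lower with PBS, and 9 higher and 5 lower with DEX. Among the 26 longest (1424 to 6073 bases) 1 was higher and 10 lower with PBS, and 2 higher and 14 lower with DEX. Spearman's rho of length with the log2 fold change was -0.35 with PBS and -0.33 with DEX over the 77 genes, and -0.05 in both arms over the 12396 tested genes that had a length. These points share the same libraries, and the relation is a description. RNA quality was not measured in these files, and its part in this relation was not tested.

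**Figure D5:**
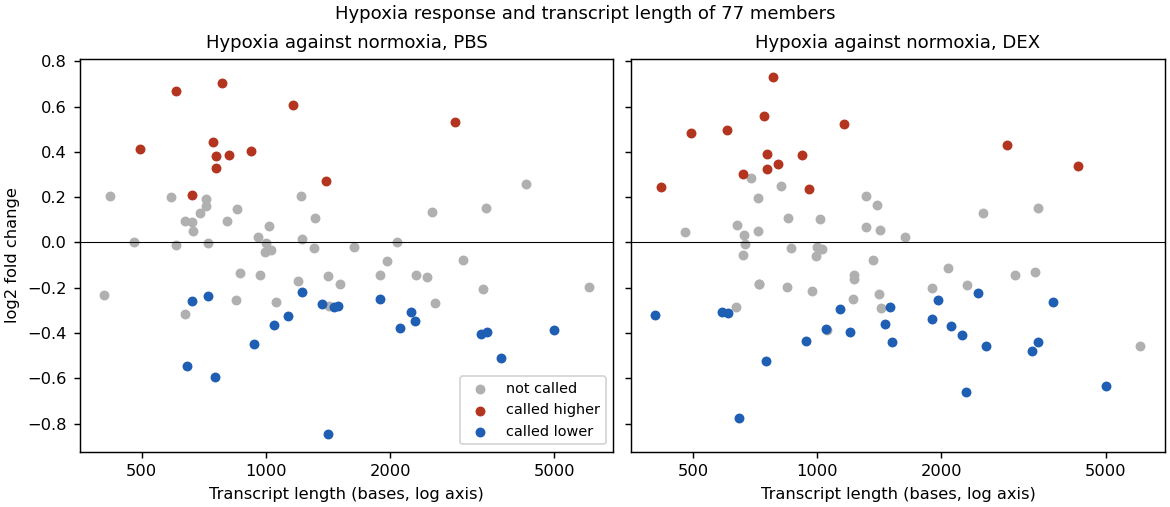
Log2 fold change in hypoxia against transcript length in bases (log axis) for the 77 genes, with PBS (left) and DEX (right). Genes called higher (red) lie mostly at short lengths, with medians of 757 bases for those higher in both arms and 1894 bases for those lower in both.

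The other genes of the mitochondrial translation pathway did not move as 1 group either. Beside the counts below stand the shares of all tested genes called in either direction, 35.7% with PBS and 42.9% with DEX, and several lists were near or below them. Of 5 mitoribosomal proteins with other symbols, 0 were higher and 2 lower with PBS (edgeR, with 1 higher and 2 lower at an unadjusted p under 0.05, and 0 and 1 by DESeq2), namely Gadd45gip1 (log2 -0.36 ± 0.10, adjusted p = 0.0151) and Chchd1 (-0.24 ± 0.09, adjusted p = 0.0418). Of 25 tested assembly factors 6 were higher and 6 lower with PBS, and 5 higher and 7 lower with DEX. Mtg1, a GTPase that acts on the large subunit, averaged 9.1 CPM in normoxia and 15.7 CPM in hypoxia with PBS (log2 0.79 ± 0.10, edgeR adjusted p = 0.000102). Tfb1m, which methylates the small ribosomal RNA, rose by 0.70 ± 0.16 with PBS (edgeR adjusted p = 0.00397) and by 0.89 ± 0.16 with DEX (adjusted p = 0.000555).

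Among 13 tested translation factors 2 were higher and 2 lower with PBS, and 2 higher and 3 lower with DEX. The elongation factors went opposite ways. Gfm1, the translocase, averaged 72.1 ± 3.73 CPM in normoxia and 127 ± 6.98 CPM in hypoxia with PBS (SD, n = 3), and rose by log2 0.81 ± 0.07 (edgeR adjusted p = 2.88e-06) and with DEX by 0.96 ± 0.07 (adjusted p = 5.11e-07). Tufm, which delivers aminoacyl-tRNA, averaged 37.6 ± 1.69 and 23.4 ± 0.24 CPM with PBS (SD, n = 3), and changed by -0.69 ± 0.06 (edgeR adjusted p = 6.75e-06) and with DEX by -0.79 ± 0.06 (adjusted p = 1.37e-06). Gfm2, a recycling factor, changed by -0.33 ± 0.07 with PBS (edgeR adjusted p = 0.00187). Of 20 mitochondrial tRNA synthetases 2 were higher and 7 lower with PBS, and 3 higher and 8 lower with DEX. Tars2 had log2 -0.82 ± 0.09 and Iars2 0.63 ± 0.08 with PBS (edgeR adjusted p = 3.21e-05 and 6.98e-05).

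The RNA on which these proteins assemble was lower in hypoxia. mt-Rnr1, the small-subunit ribosomal RNA, averaged 424 ± 62.8 CPM in normoxia and 149 ± 22.6 CPM in hypoxia with PBS, and 550.5 ± 23.9 and 144 ± 11.8 CPM with DEX (SD, n = 3). Its log2 fold changes were -1.50 ± 0.12 (edgeR adjusted p = 2.54e-06) and -1.93 ± 0.12 (adjusted p = 2.69e-07). mt-Rnr2, the large-subunit ribosomal RNA, had -0.67 ± 0.12 (edgeR adjusted p = 0.000664) and -0.99 ± 0.12 (adjusted p = 2.56e-05). The library kit selects polyadenylated RNA, so these reads come from the captured fraction of ribosomal RNA, and whether that fraction moved with oxygen was not tested. Of the 10 measured mitochondrial messenger RNAs 6 were higher and 0 lower with PBS, and 3 higher and 0 lower with DEX (edgeR, with 0 lower at an unadjusted p under 0.05 in each arm). DESeq2 called 6 higher with PBS, 5 higher with DEX and 0 lower in either. mt-Nd5, a complex I subunit, rose by 0.85 ± 0.09 with PBS (edgeR adjusted p = 2e-05). Comparing DEX with PBS in normoxia, 6 of these 10 messenger RNAs were higher by edgeR, where 9.38% of all tested genes were. In hypoxia that comparison called 0 higher by edgeR, where 6.13% of all tested genes were, and 2 by DESeq2.

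Among 18 genes of mitochondrial DNA expression 2 were higher and 2 lower with PBS, and 4 higher and 3 lower with DEX. Hsd17b10, a subunit of the mitochondrial tRNA-processing enzyme RNase P that also acts as a dehydrogenase, averaged 77.2 ± 13.1 CPM in normoxia and 296 ± 45.4 CPM in hypoxia with PBS (SD, n = 3), with log2 fold changes of 1.94 ± 0.13 (edgeR adjusted p = 7.62e-07) and with DEX of 1.89 ± 0.13 (adjusted p = 4.82e-07). Of 8 tested regulators of mitochondrial biogenesis 1 was higher and 1 lower with PBS, and 1 higher with DEX. Esrra, a nuclear receptor that binds promoters of mitochondrial genes, rose by 0.79 ± 0.15 with PBS (edgeR adjusted p = 0.00147) and by 0.999 ± 0.15 with DEX (adjusted p = 0.000201). Ppargc1b, a coactivator of such genes, rose with DEX in normoxia by 1.31 ± 0.36 (edgeR adjusted p = 0.0238).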

How the data were processed

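The authors deposited whole-number counts per gene for 12 mouse liver libraries in 1 table, with no normalization. HISAT2 2.0.4, featureCounts, Trimmomatic, DESeq2 and SAMtools are listed, without roles, per the submitters' processing notes, as is mm10. Which annotation and strand setting the counting used is not given in the sources. A stranded mRNA kit was used, per the labels' protocols. Symbols were found for 54723 of 54838 identifiers. Gene positions, transcript lengths and overlaps came from GENCODE M21 (GRCm38). Unmapped sample columns numbered 0.

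The model was edgeR 4.0.16 on the counts (R 4.3.3, filterByExpr by group, TMM, robust quasi-likelihood fit with 1 mean per group over all 12 libraries, 8 residual degrees of freedom), which tested 13861 genes. Hypoxia was compared with normoxia under PBS and under DEX, DEX with PBS at each oxygen level, and the DEX responses with each other (interaction). P-values were adjusted by Benjamini-Hochberg over all tested genes, and the threshold was 0.05. Levels are CPM on TMM-scaled library sizes, except in the member rule, which used library totals. The fit was tested on simulated counts. Alternatives covered other scalings, DESeq2 1.42.0, filters, a replicate block, the groups in the fit, the member list, overlapping genes and each library left out.

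Named genes are, per comparison, the 6 called members with the largest rise and the 6 with the largest fall, a set fixed for role, the 5 highest and 5 lowest per kilobase of transcript and, per pathway list, the 3 called genes with the largest change. The naming rule spoke of exon length, and transcript length was used. The members and lists were chosen with earlier results of these data known. Depth limits low genes most: 76 of the 77 members had at least 30 counts in every library, and the lowest count of a member in a library was 20.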

Additional observations from a re-analysis of the deposited data

Results flagged for a closer look

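The DEX response of 3 genes differed between oxygen levels in the interaction test (edgeR, Benjamini-Hochberg adjustment over all tested genes), among the members and the marker and pathway lists examined. Over all tested genes 1.32% passed this test, and nothing particular to these lists is drawn from the count. The effect of leaving out libraries is given here for the member alone. Mrpl38 had a response 0.62 ± 0.14 higher in hypoxia on the log2 scale (standard error, adjusted p = 0.0485), which 10 of the 12 omissions of single libraries ended. The endothelial marker Lyve1 had a response that was lower in hypoxia, at -1.27 ± 0.16 (adjusted p = 0.00202). Kdr, the endothelial receptor of vascular endothelial growth factor, had a response higher by 0.59 ± 0.13 (adjusted p = 0.047).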

How the results depend on the processing

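Of 357 summary values recomputed under alternatives, 308 stayed within their limits and 49 moved. Among 4784 values of 46 named members, 131 lost and 56 gained a call, and 0 changed sign with a call. Under each alternative, 15 of 23 named calls of hypoxia with PBS, 20 of 26 with DEX, 2 of 2 of DEX in normoxia, 2 of 4 in hypoxia and 0 of 1 of the interaction held. With library totals alone, hypoxia gave 7 higher with PBS (median -0.17) and 9 with DEX (-0.19), DEX gave 9 lower in normoxia (-0.12) and 6 lower in hypoxia (-0.064), and the interaction median was 0.046. Upper-quartile factors gave DEX in normoxia 1 lower and a median of -0.0058, and the interaction a median of 0.035. Fitting only the compared groups gave 1 lower in each DEX comparison. Without overlapping members, hypoxia with DEX gave 9 higher (median -0.18) and DEX in hypoxia 1 lower. Summing Hypoxia_DEX-1 and Hypoxia_DEX-3 gave DEX in hypoxia 1 lower and the interaction 0 higher. Without Hypoxia_DEX-2 and Hypoxia_PBS-1 the median of hypoxia with PBS was -0.13, DEX in hypoxia gave 4 higher (0.094), and the interaction 1 lower (0.055). For all of these the cause was not tested.

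Leaving out single libraries, hypoxia with PBS gave 8 to 13 higher and 11 to 20 lower (medians -0.14 to -0.044), hypoxia with DEX 10 to 16 higher and 16 to 22 lower (-0.13 to -0.089), DEX in normoxia 2 to 3 higher and 0 to 1 lower (0.017 to 0.052), DEX in hypoxia 2 to 5 higher and 0 to 2 lower (0.019 to 0.104), and the interaction 0 to 1 higher and 0 lower (-0.043 to 0.061).

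The deviations of 18 same-numbered pairs correlated at -0.15 to 0.39, over 0.1 in 4. Hypoxia_DEX-1, Hypoxia_PBS-1 and Normoxia_PBS-1 correlated with each other at 0.20 to 0.33, and Hypoxia_DEX-2 with Hypoxia_PBS-2 at 0.39. Normoxia_DEX-1 stayed between -0.07 and 0.01 with the others of its number. Pairs with different numbers were not examined for reference, so whether the numbers mark a pairing or batch was not tested. With the replicate number as a block, hypoxia with PBS gave 11 higher and 18 lower, hypoxia with DEX 14 and 22, and the interaction 0 of either. The named calls lost under the block were Mrps27 (adjusted p = 0.0553) and Mrpl24 (0.0568) in hypoxia with PBS, Mrpl35 (0.0559) in hypoxia with DEX and Mrpl38 (0.0567) in the interaction (edgeR).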
